A study of Caenorhabditis elegans with 24 samples.

Results

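The glutathione S-transferase genes of Caenorhabditis elegans were taken by symbol, as every gene in the count files named gst, gsto or gstk with a number. They were 49 of the 19669 genes counted. Of these, 44 were gst genes, 3 were gsto genes of the omega class and 2 were gstk genes of the kappa class. At 37 °C the mRNA of the same 7 members rose in both strains. Among them gst-8 passed the filter on low counts through its heated libraries and so had to differ. Without it 6 rose in each strain. The share of tested members called, 18.6% in the mutant and 16.3% in WT, was below the 20.0% and 18.3% of all genes. For translational efficiency 12.8% of tested members were called in the mutant and 7.69% in WT, beside 20.9% and 19.3% of all genes. It fell in both strains for 3 of the 7, of which gst-8 could not be tested. These calls were lost when libraries were scaled by their totals. The mRNA libraries by which the 7 were picked also enter the efficiency.

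The tested strain was the metl-5 mutant, a deletion of C38D4.9, and its reference was the wild type N2 (WT); adults of each were kept at 37 °C or at 20 °C, and no other genotype, age or agent is given. Messenger RNA sequencing of total RNA and ribosome profiling, which sequences the stretches of mRNA covered by ribosomes (footprints), were done on 3 libraries per group, in 8 groups. The metl-5 gene encodes a methyltransferase known to place N6-methyladenosine on ribosomal RNA, and the comparisons asked what its loss and heat do to mRNA levels and to translation. How long the worms were at 37 °C, whether the mutant is 1 line and whether replicates came from separate cultures are not given, so p-values here reflect only how these samples varied, which may be technical.

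Glutathione S-transferases join the tripeptide glutathione to reactive electrophiles, among them products of lipid oxidation, which makes these compounds more soluble and less harmful. In C. elegans the transcription factor SKN-1 is known to switch on several of these genes under oxidative stress, and gst-4 is the member most used as a reporter of that response. Whole worms were sequenced here, so fewer cells of a type and less RNA per cell cannot be told apart.

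Each mRNA library held 15522050 to 17239906 gene counts and each footprint library 4410194 to 19012050. The mRNA reads carried no strand (50.5 to 50.9% lay on the gene's strand), while 99.7 to 99.9% of the footprints did. In the mRNA libraries metl-5 was at 2.51 to 4.4 scaled CPM in the mutant against 6.65 to 12.4 in WT at 37 °C, and at 1.55 to 2.20 in the mutant against 5.88 to 9.54 in WT at 20 °C. Scaled CPM are counts per 1000000 of a library after TMM scaling, which sets libraries to a common level over most genes. The heat shock gene hsp-70 was at 2230 to 3220 scaled CPM of mRNA at 37 °C and at 3.68 to 9.55 at 20 °C. Of 3 intestinal markers, elt-2, ges-1 and asp-1, 0 were at 0 and 0 changed in the mRNA between temperatures in either strain, while both muscle and both cuticle markers rose and the summed sperm markers were at 366 to 640 scaled CPM at 37 °C against 480 to 1890 at 20 °C. Of 4 sperm markers 3 fell in the mutant and 2 in WT, and of 4 germline markers 1 fell in each. The summed adult markers, 4 yolk genes, were at 18400 to 23600 scaled CPM in metl-5 at 37 °C against 11100 to 16700 at 20 °C. In WT they were at 13800 to 20700 at 37 °C against 10900 to 13000 at 20 °C. Of these, vit-2 alone passed the test in WT (log2 change 0.82, edgeR adjusted p = 0.0376). The part of these shifts in the results was not tested.

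Positions are those of the WBcel235 annotation from Ensembl, matched by gene identifier. Chromosome II holds 26 members, against 9 on V, 5 on IV, 4 on III, 3 on X and 2 on I. All 49 are annotated as protein coding. With gaps of up to 20000 bases allowed, 25 members fell into 4 arrays. Array 1 (chromosome II, 4879891 to 4893573) holds gst-6, gst-7, gst-8 and gst-9, all on the plus strand. The stretch between gst-7 and gst-8 is 353 bases and that between gst-8 and gst-9 is 6985. Array 2 (II, 13608154 to 13630887) holds 9 members on the minus strand, in the order gst-20, gst-24, gst-15, gst-14, gst-12, gst-16, gst-19, gst-17 and gst-18. Array 3 (II, 15163817 to 15185389) holds 9 more, also on the minus strand, from gst-26 to gst-35. Array 4 (IV, 10139380 to 10143099) is the shortest and holds gst-3, gst-2 and gst-4. The other 24 members stand alone, among them gst-1 (III, 9059331 to 9060181), gst-36 (X, 9861646 to 9862960) and gst-10 (V, 2561690 to 2564645).

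Neighbours in such arrays can be near copies, and how reads shared by copies were counted is not given, so differences between members of 1 array are uncertain to that extent. Exons of 8 members overlap a counted gene on the other strand. The longest such overlap is 93 bases, between gst-36 and scav-5. The mRNA level of scav-5 was 1.99 to 10.4 scaled CPM at 37 °C, against 226 to 351 for gst-36 in the same libraries. On the same strand, gst-17 and gst-18 share 351 exon bases and gst-4 shares 65 with dhs-12.

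Most members were present at low levels in unstressed worms, and a few carried most of the family's mRNA. Per kilobase of exon, gst-10 stood first in WT at 20 °C with 324 ± 148 scaled CPM (SD, n = 3). GST-10 is known to act on 4-hydroxynonenal, an aldehyde made when lipids oxidise. It was followed by gst-7 (212 ± 22), gst-27 (180 ± 45.7), gst-1 (170 ± 11.4) and gst-13 (140 ± 41.3). The ranges of gst-10 and gst-7 (229 to 495 and 190 to 234) overlapped, as did those of gst-7, gst-27, gst-1 and gst-13 in turn, so neighbours in this order did not differ beyond their spread. At 37 °C the order in WT was led by gst-1 with 1060 ± 154, gst-7 with 655 ± 33 and gst-36 with 377 ± 76.2, and then gst-10 with 239 ± 135. The ranges of gst-1 (948 to 1230) and gst-7 (617 to 675) did not overlap there. The metl-5 mutant at 20 °C also had gst-10 first, at 241 ± 90.8 scaled CPM per kilobase, and gst-7 second, at 187 ± 30.7.

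**Figure D1:**
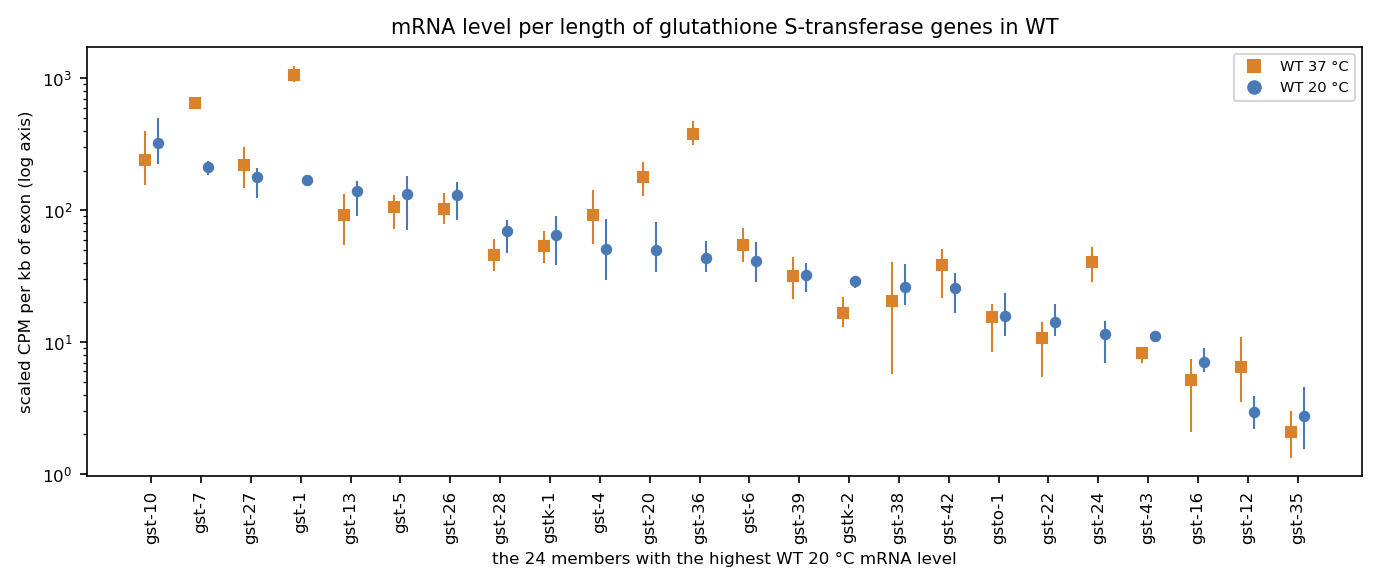
mRNA level per kilobase of exon (scaled CPM, log axis) of the 24 members with the highest level in WT at 20 °C, ordered by that level. Squares are the mean of 3 WT libraries at 37 °C and circles that of 3 at 20 °C, with lines from the lowest to the highest library. The whole WT 37 °C ranges of gst-1, gst-7, gst-36, gst-20 and gst-24 stand above their 20 °C ranges. Squares of some other members, among them gst-27 and gst-4, also stand above the 20 °C range, but their ranges overlap.

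At the other end, 6 members had too few mRNA counts to be tested (gst-11, gst-17, gst-18, gst-25, gst-37 and gsto-2), with at most 9 counts in any library. gst-18 had 0 counts in every mRNA and footprint library, which allows up to 3 in each. gst-17 had 12 mRNA counts over all libraries and gst-37 had 3. In the footprints 9 members could not be tested, which were gst-8, gst-14, gst-17, gst-18, gst-19, gst-25, gst-32, gst-37 and gsto-2. Thus 43 of 49 members entered the mRNA tests, 40 the footprint tests and 39 those of translational efficiency.

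In the heated metl-5 mutant, 7 members rose and 1 fell among the 43 tested (edgeR's quasi-likelihood test, Benjamini-Hochberg adjusted p under 0.05 over 13315 genes). In heated WT worms 7 rose and 0 fell. These are 18.6% and 16.3% of the tested members, beside 20.0% and 18.3% of all genes, so the family did not stand out by its count. By direction, 10.8% of all genes rose and 9.16% fell in the mutant, and 9.76% rose and 8.50% fell in WT. The median log2 change of the tested members was 0.49 in the mutant and 0.33 in WT, beside −0.01 and −0.02 over all genes. The 7 that rose were the same in both strains, which is 100% of the WT list and 87.5% of the mutant list. The matching share over all genes is not given, so this overlap is not read as particular to the family. The interaction of strain with heat was called for 0 of the 13315 genes. They were gst-1, gst-36, gst-20, gst-24 and the 3 neighbours gst-7, gst-8 and gst-9. gst-8 passed the filter on low counts through its heated libraries and so had to differ; without it 6 rose in each strain. Each of these 6 kept its call in all 18 alternative fits run in each strain. The strains do not share libraries in these heat comparisons, but they share a fit and its estimate of the spread.

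gst-1 was the most abundant of these 7 at 37 °C. Its mRNA was at 730, 775 and 656 scaled CPM in metl-5 at 37 °C, against 110, 112 and 104 in metl-5 at 20 °C. In WT it was at 710, 924 and 742 at 37 °C, against 132, 132 and 117 at 20 °C. Every heated library stood far above every unheated one. The log2 changes were 2.73 ± 0.213 (SE, adjusted p = 4.79e-07 by edgeR) in the mutant and 2.64 ± 0.213 (6.01e-07) in WT.

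gst-36, which lies on X outside the arrays and overlaps scav-5, rose by the most among the well-expressed members. Its levels were 259, 282 and 226 scaled CPM in metl-5 at 37 °C against 30.3, 26.2 and 25.3 at 20 °C. In WT they were 242, 351 and 263 at 37 °C against 43.4, 28.8 and 26.3 at 20 °C. The groups were far apart in both strains, with log2 changes of 3.23 ± 0.252 and 3.12 ± 0.251 (edgeR adjusted p = 4.79e-07 and 6.01e-07).

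In array 1, gst-8 was nearly without counts at 20 °C. It had 74, 98 and 95 mRNA counts in metl-5 at 37 °C against 2, 2 and 7 at 20 °C. In WT it had 86, 119 and 158 counts at 37 °C against 6, 2 and 0 at 20 °C. The groups did not overlap, which the way it passed the filter implies. Its level at 37 °C was 6.72 ± 1.29 scaled CPM in the mutant and 9.34 ± 2.98 in WT (SD, n = 3 each), and its fitted change, which rests on few counts at 20 °C, is not used.

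The neighbours of gst-8 moved with different sizes. gst-7 was at 413, 418 and 411 scaled CPM in metl-5 at 37 °C against 117, 139 and 163 at 20 °C, and at 503, 502 and 460 in WT at 37 °C against 157, 141.7 and 175 at 20 °C. These tight groups gave log2 changes of 1.57 ± 0.204 and 1.63 ± 0.205 (edgeR adjusted p = 0.000122 and 9.11e-05). gst-9 was at 16.1, 9.54 and 12.3 scaled CPM in metl-5 at 37 °C against 0.752, 1.60 and 1.51 at 20 °C, and at 12.2, 12.1 and 14.1 in WT at 37 °C against 1.22, 2.12 and 2.44 at 20 °C. Its log2 changes were 3.29 ± 0.416 and 2.73 ± 0.404 (edgeR adjusted p = 9.92e-05 and 0.000402). The last member of the array, gst-6, did not pass the test, with 0.67 in the mutant and 0.41 in WT.

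Array 2 began with both of its risen members, gst-20 and gst-24. gst-20 was at 194, 130 and 103.2 scaled CPM in metl-5 at 37 °C against 42.8, 20.1 and 29.4 at 20 °C, and at 188, 142.1 and 106 in WT at 37 °C against 65.1, 28.3 and 28.8 at 20 °C. The log2 changes were 2.21 ± 0.373 and 1.84 ± 0.368 (edgeR adjusted p = 0.00107 and 0.00374). gst-24 was at 38.8, 30.7 and 20.9 scaled CPM in metl-5 at 37 °C against 7.68, 5.50 and 11.9 at 20 °C. In WT it was at 38.4, 30.6 and 21.6 at 37 °C against 9.6, 5.25 and 10.6 at 20 °C. Heated and unheated libraries of gst-20 and of gst-24 did not overlap, and the log2 changes of gst-24 were 1.85 ± 0.374 and 1.83 ± 0.374 (edgeR adjusted p = 0.00349 and 0.00425). The next gene, gst-15, had 0.88 in the mutant and 1.28 in WT, with adjusted p-values of 0.182 and 0.0608, and no overlap between its temperature groups.

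**Figure D2:**
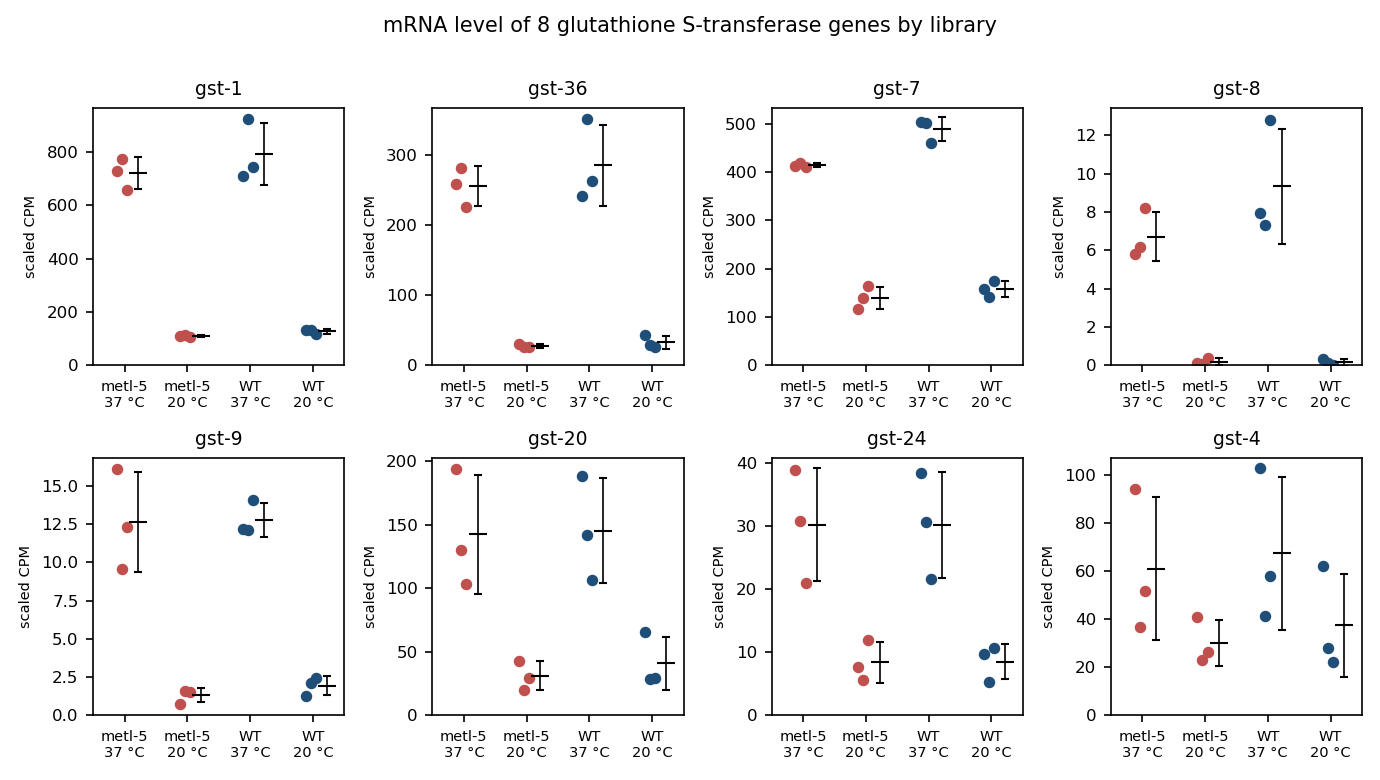
mRNA level (scaled CPM, linear axes from 0) of the 7 members that rose and of gst-4, in each of 3 libraries per group; the black bars are the mean ± SD. In all 7 the 37 °C points of a strain lie above its 20 °C points, while those of gst-4 overlap.

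Away from these genes the tested members of the arrays did not pass the test. Array 3, with 9 tested members, had a median log2 change of 0.12 in the mutant and −0.35 in WT, from −0.45 to 1.83 in the mutant and from −2.08 to 2.75 in WT. Its abundant member gst-27 changed by 0.47 ± 0.277 and 0.29 ± 0.276. Array 4, with gst-4, had 0 calls of 3. Calls were 3 of 4 in array 1 (gst-8 among them), 2 of 7 tested in array 2, and 0 in arrays 3 and 4. Of all genes 10.8% rose in the mutant and 9.76% in WT. The arrays hold few tested genes, so no difference between them is shown, and none was tested.

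**Figure D3:**
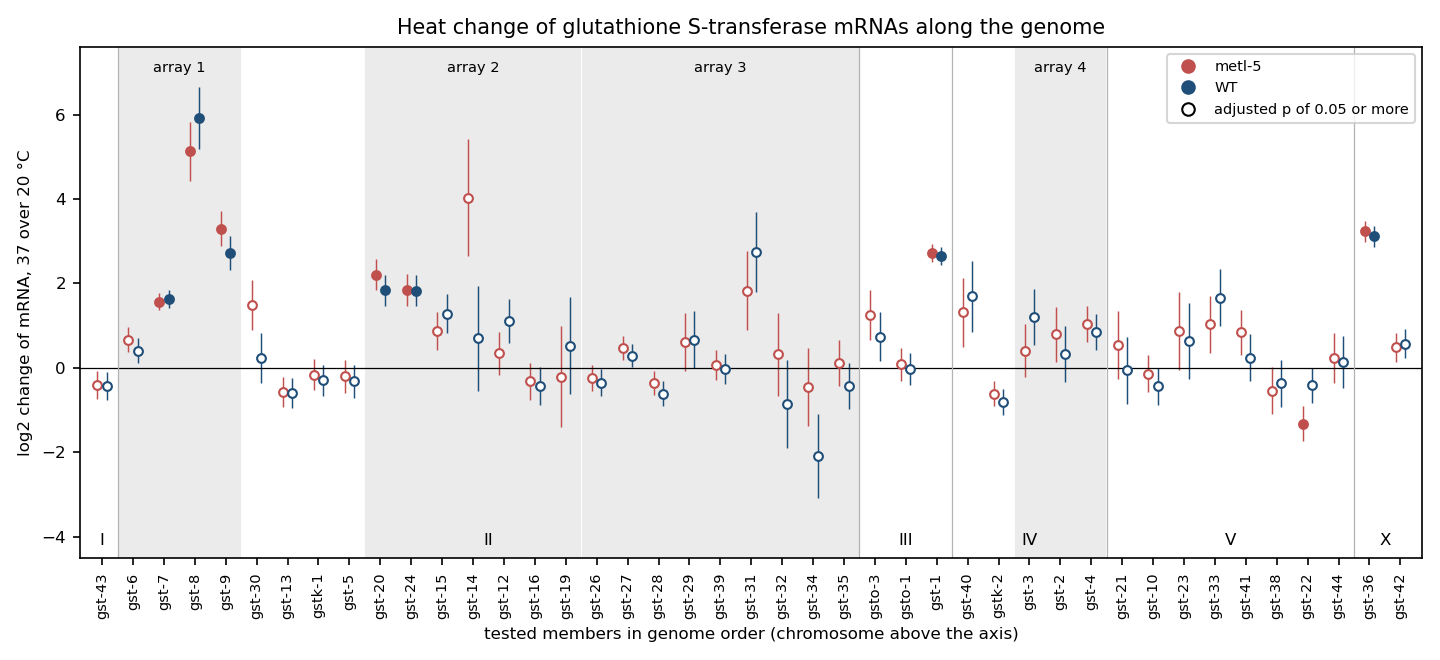
log2 change of mRNA between 37 and 20 °C of the 43 tested members, in genome order, with chromosomes above the axis and the 4 arrays shaded. Points are edgeR estimates with lines of 1 SE, for the mutant and WT; filled points have an adjusted p under 0.05. The filled points are gst-7, gst-8, gst-9, gst-20, gst-24, gst-1 and gst-36 in both strains and gst-22 in the mutant.

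gst-4, the reporter gene of SKN-1, was higher on average at 37 °C but did not pass the test. It was at 94.5, 36.8 and 51.8 scaled CPM in metl-5 at 37 °C against 40.9, 23 and 26.1 at 20 °C, and at 102.5, 41.4 and 58.0 in WT at 37 °C against 62.1, 28.0 and 22.3 at 20 °C. The groups overlapped in both strains, and replicate 1 was the highest library in all 4 groups. The log2 changes were 1.03 ± 0.427 and 0.84 ± 0.426 (edgeR adjusted p = 0.101 and 0.177). With the replicate number added to the fit as a block, gst-4 passed in both strains. Over all genes, though, the numbers did not pair the mRNA libraries between temperatures. In a fit of the metl-5 libraries alone gst-4 also passed. gst-10 likewise had its highest value in replicate 1 of every mRNA group, with 263, 106 and 102 scaled CPM in metl-5 at 37 °C against 227, 101 and 191 at 20 °C. In WT it was at 283, 118 and 113 at 37 °C against 356, 165 and 178 at 20 °C. Its groups overlapped, and the log2 changes were −0.14 ± 0.444 and −0.44 ± 0.445.

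The single fall was that of gst-22 in the mutant, at 3.85, 4.77 and 3.71 scaled CPM at 37 °C against 6.39, 9.32 and 15.1 at 20 °C. Its log2 change was −1.32 ± 0.423 (edgeR adjusted p = 0.0385), against −0.41 ± 0.413 in WT, where its groups overlapped (10, 9.05 and 4.04 at 37 °C, and 13.8, 8.18 and 8.77 at 20 °C). The interaction test called 0 members, so no difference between the strains is shown. The call was lost in 5 of 18 alternative fits, all of them with 1 library left out. gst-22 overlaps F21H7.12 on the other strand by 12 exon bases.

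Several members with other known roles did not pass the test. gst-42, the maleylacetoacetate isomerase of tyrosine breakdown, was at 33.7, 21.3 and 40.1 scaled CPM in metl-5 at 37 °C against 21.7, 17.9 and 27.8 at 20 °C, with log2 changes of 0.49 ± 0.342 and 0.57 ± 0.341 in the mutant and WT. The omega class member gsto-1 changed by 0.08 ± 0.384 and −0.03 ± 0.383, and gst-13 by −0.57 ± 0.348 and −0.60 ± 0.349. gst-43 had −0.40 ± 0.334 in the mutant. None of these values passed the test in either strain, though gst-13 did in both with the replicate number as a block.

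Because the 7 risen genes included the abundant gst-1, gst-7 and gst-36, the family's composition shifted. They held 67.0 ± 5.67% of the family's mRNA in metl-5 at 37 °C against 29.4 ± 5.66% at 20 °C (SD, n = 3). In WT they held 66.6 ± 8.38% at 37 °C against 27.9 ± 4.62% at 20 °C. These shares describe genes chosen by the heat comparison itself. The other 42 members together were at 791 ± 216 scaled CPM in metl-5 at 37 °C and 788 ± 232 at 20 °C, and at 899 ± 302 in WT at 37 °C and 989 ± 291 at 20 °C.

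The choice of scaling bears on the small changes. With library totals in place of TMM, the median of all genes tested moved to −0.60 in the mutant and −0.49 in WT. Of all genes 4.21% then rose and 24.4% fell in the mutant, and 4.71% rose and 19.1% fell in WT. The same 7 members rose, and 6 fell in the mutant (gst-13, gst-22, gst-26, gst-28, gst-43 and gstk-2) and 5 in WT (gst-13, gst-26, gst-28, gst-34 and gstk-2), against 7 up and 1 down, and 7 up and 0 down, under TMM.

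Genes around the family in glutathione metabolism were counted from lists chosen by function. Of 10 genes of glutathione synthesis and recycling, 2 rose and 1 fell in the heated mutant and 1 rose and 1 fell in heated WT. Glutathione reductase, gsr-1, which returns oxidised glutathione to its reduced form, rose by 1.88 in the mutant and 1.93 in WT on the log2 scale. gspd-1, the glucose-6-phosphate dehydrogenase that supplies NADPH, fell by 1.04 and 1.07. The rate-limiting enzyme of glutathione synthesis, gcs-1, also a target of SKN-1, changed by 1.01 ± 0.763 and 1.02 ± 0.764 and did not pass the test. Its 20 °C replicate 3 stood far below replicates 1 and 2. In metl-5 it was at 1.56 scaled CPM against 18.6 and 32.9, and in WT at 2.16 against 20.8 and 30.8. Among 6 tested of 8 listed glutathione peroxidases, which use glutathione to reduce peroxides, 2 rose in the mutant (gpx-2 and gpx-5) and 3 in WT (gpx-2, gpx-3 and gpx-5, by 1.82, 1.79 and 1.80). For gpx-2, 20 °C replicate 3 was again low, at 4.95 scaled CPM against 23.2 and 20.9 in metl-5. In WT it was at 3.94 against 16.9 and 24.3. Of 8 multidrug resistance exporters of the mrp genes, which pump conjugates out of cells, 1 fell in the mutant, mrp-1, and 0 changed in WT.

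Regulators of SKN-1 were counted next, in a list that includes skn-1 itself. Of these 9 genes, 3 fell in the mutant and 2 in WT and 0 rose. skn-1 itself changed by −0.64 ± 0.257 and −0.48 ± 0.257 and its repressor wdr-23 by 0.04 and −0.19, none of which passed the test. The mediator subunit mdt-15 fell by 1.37 and 1.25, and the kinase gsk-3 fell by 1.42 and 1.30. Among 6 tested SKN-1 targets outside the family, 1 rose in each strain, the autophagy receptor sqst-1 (4.29 and 4.47). Of the 4 enzymes of tyrosine breakdown beside gst-42, 1 rose in each strain, hgo-1 (0.76 and 0.89).

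Several footprint libraries stood apart from their labels, judged by 3 genes that were picked as strain markers after their values were seen. Counts of ZK228.3 and ZK228.4, present in WT, and of cTel55X.1, present in the mutant, kept to their strain in all 12 mRNA libraries, while in 4 footprint libraries a gene belonging to the opposite strain reached 10 counts or more. The libraries labelled metl-5 37 °C replicate 2 and replicate 3 had 63 and 57 counts of ZK228.3, WT 20 °C replicate 2 had 147 of cTel55X.1 and WT 37 °C replicate 3 had 27. A further pair stood between the temperatures in hsp-70, with 4800 scaled CPM in the library labelled metl-5 20 °C replicate 2, against 27.2 and 11.6 in the other two, and 6610 in the library labelled WT 37 °C replicate 2, against 16200 and 23200. The authors' deposited base means, refitted as a weighted sum of the libraries' counts, gave this pair weights of −0.00258 and −0.00121, against 0.0473 to 0.19 for the other 10 libraries, so the pair did not enter those tables. The metl-5 gene itself had 1.23, 7.67 and 5.24 scaled CPM of footprints in the libraries labelled metl-5 37 °C against 6.7, 8.04 and 5.36 in those labelled WT 37 °C. Mutant replicates 2 and 3 thus lay within the WT range or next to it, against their label. At 20 °C it had 0.858, 2.34 and 1.12 in the mutant against 6.42, 4.38 and 6.92 in WT. Footprint groups are named below by their labels. Without these 6 libraries, 4 remain at 20 °C and 2 at 37 °C, 1 per strain, so that the spread of the lone heated libraries is taken from the other groups.

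In the footprints of the heated metl-5 mutant 6 members rose and 4 fell among the 40 tested (25% of them, beside 26.9% of all 12387 genes). In heated WT 4 rose and 0 fell (10%, beside 16.7%). Of all genes 12.2% rose and 14.7% fell in the mutant, and 9.78% rose and 6.93% fell in WT. The 4 of WT, gst-1, gst-15, gst-24 and gst-36, also rose in the mutant, where they make 40% of the list. Here too the matching share over all genes is not given. The same-numbered libraries varied together in the footprints, and with the replicate number as a block the counts were 7 up and 5 down in the mutant and 6 up and 2 down in WT. Without the 6 doubted libraries they were 5 up and 6 down, and 5 up and 3 down. The WT count was 2 with only the WT groups in the fit. Leaving out 1 library at a time gave 0 to 11 calls in the mutant, 0 without metl-5 20 °C replicate 1 or 3, and 0 to 10 in WT, 0 without WT 20 °C replicate 1 or 3 or WT 37 °C replicate 1 or 3.

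gst-1 footprints were at 968, 1870 and 584 scaled CPM in the libraries labelled metl-5 37 °C, against 288, 614 and 259 at 20 °C. In WT they were at 844, 914 and 592 at 37 °C against 272, 337 and 252 at 20 °C. The WT groups did not overlap, while the mutant groups did, since the doubted 20 °C replicate 2 at 614 lay above the heated replicate 3. The log2 changes were 1.56 ± 0.417 (edgeR adjusted p = 0.0208) in the mutant and 1.45 ± 0.416 (0.0391) in WT, and 1.80 and 1.65 without the 6 doubted libraries.

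gst-36 had the highest footprint level per coding kilobase after gst-1 in heated worms of both strains. Its levels were 384, 834 and 317 scaled CPM in metl-5 at 37 °C against 104, 257 and 135 at 20 °C, and 321, 392 and 336 in WT at 37 °C against 108, 96.2 and 126 at 20 °C. The temperature groups did not overlap in either strain, and the log2 changes were 1.63 ± 0.381 and 1.67 ± 0.382 (edgeR adjusted p = 0.0148 and 0.0280). They were 1.67 and 1.43 without the doubted libraries. Since footprints carry strand, scav-5 does not add to them.

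The array 2 genes gst-24, gst-15 and gst-20 had higher footprint levels at 37 °C. gst-24 was at 28.1, 33.9 and 18.0 scaled CPM in metl-5 at 37 °C against 8.75, 10.8 and 7.31 at 20 °C, and at 31.2, 12.8 and 19.7 in WT at 37 °C against 7.87, 6.46 and 4.98 at 20 °C. Its groups were apart in both strains, with log2 changes of 1.57 ± 0.349 and 1.70 ± 0.352 (edgeR adjusted p = 0.0130 and 0.0252). gst-15 was at 6.57, 5.93 and 7.56 scaled CPM in metl-5 at 37 °C against 2, 3.06 and 3.00 at 20 °C, and at 6.70, 2.01 and 9.24 in WT at 37 °C against 1.71, 2 and 2.53 at 20 °C. The low heated WT value was the doubted replicate 2, and the log2 changes were 1.32 ± 0.455 and 1.5 ± 0.458 (edgeR adjusted p = 0.0479 and 0.0437). The mutant call of gst-15 was lost in 12 of 21 alternative fits and that in WT in 11. gst-20 passed in the mutant, at 255, 236 and 89.0 scaled CPM at 37 °C against 77.8, 96.9 and 57.6 at 20 °C (1.32 ± 0.421, edgeR adjusted p = 0.0363), with groups that overlapped. In WT it was at 207, 106 and 94.0 at 37 °C against 89.7, 44.6 and 55.6 at 20 °C (1.10 ± 0.419, adjusted p = 0.0776), and at an adjusted p of 0.0324 with the replicate block.

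Of array 1, gst-9 footprints rose in the mutant, with 9.44, 12.4 and 8.53 scaled CPM of footprints at 37 °C against 3.26, 5.65 and 2.53 at 20 °C (1.41 ± 0.341, edgeR adjusted p = 0.0157). In WT it was at 3.56, 5.76 and 5.96 at 37 °C against 2.49, 2.77 and 3.05 at 20 °C (0.90 ± 0.346, adjusted p = 0.0801, and 0.0482 with the replicate block), and without the 6 doubted libraries this WT change was 0.33 (adjusted p = 0.645). gst-7 footprints did not pass the test, at 194, 389 and 198 scaled CPM in metl-5 at 37 °C against 211, 243 and 244 at 20 °C, and at 203, 307 and 195 in WT at 37 °C against 186, 234 and 249 at 20 °C. In the mutant the heated values lay on both sides of the unheated ones. In WT the heated values of 203 and 195 lay within the unheated range and that of 307 above it. The log2 changes were 0.16 ± 0.283 and 0.08 ± 0.283. gst-8 had 1, 2 and 3 footprint counts in metl-5 at 37 °C against 4, 4 and 0 at 20 °C, and 2, 3 and 3 in WT at 37 °C against 6, 5 and 2 at 20 °C. Its footprints had too few counts to be tested. In WT at 37 °C they were at 0.418, 0.262 and 0.447 scaled CPM, beside 7.93, 7.33 and 12.8 of its mRNA. For gst-9 in WT at 37 °C the footprints were at 3.56, 5.76 and 5.96, beside 12.2, 12.1 and 14.1 of mRNA. Why gst-8 had so few footprints was not tested.

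The falls in the mutant's footprints were those of gst-10, gst-27, gst-43 and gst-13. gst-10 was at 45.8, 40.4 and 23.5 scaled CPM in metl-5 at 37 °C against 92.6, 52.3 and 112 at 20 °C (−1.23 ± 0.385, edgeR adjusted p = 0.0343). In WT it was at 48.3, 60.8 and 21.8 at 37 °C against 100, 70.4 and 81.4 at 20 °C (−0.94 ± 0.381, adjusted p = 0.0899). The groups were apart in both strains, though the WT change missed the threshold. gst-27 was at 17.4, 24.3 and 24.8 scaled CPM in metl-5 at 37 °C against 42.2, 34.5 and 86.2 at 20 °C (−1.29 ± 0.361, edgeR adjusted p = 0.0239), and at 26.2, 41.0 and 27.3 in WT at 37 °C against 56, 44.0 and 84.3 at 20 °C (−0.96 ± 0.355, adjusted p = 0.0716, and 0.0497 with the replicate block). Its heated libraries lay below every unheated library of the same strain. gst-43, related to the maleylacetoacetate isomerases, was at 4.51, 6.22 and 6.98 scaled CPM in metl-5 at 37 °C against 12.2, 8.55 and 10.8 at 20 °C (−0.83 ± 0.251, edgeR adjusted p = 0.0305). In WT it was at 10.5, 9 and 9.39 at 37 °C against 12.8, 12.1 and 12.8 at 20 °C and did not pass. gst-13 averaged 138 ± 4.01 scaled CPM in metl-5 at 37 °C against 207 ± 46.4 at 20 °C (SD, n = 3) and changed by −0.59 ± 0.203 (edgeR adjusted p = 0.0483), a call lost in 14 of 21 alternative fits. In WT it was at 133, 138 and 141 at 37 °C against 174, 148 and 214 at 20 °C, also without overlap, and did not pass.

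**Figure D4:**
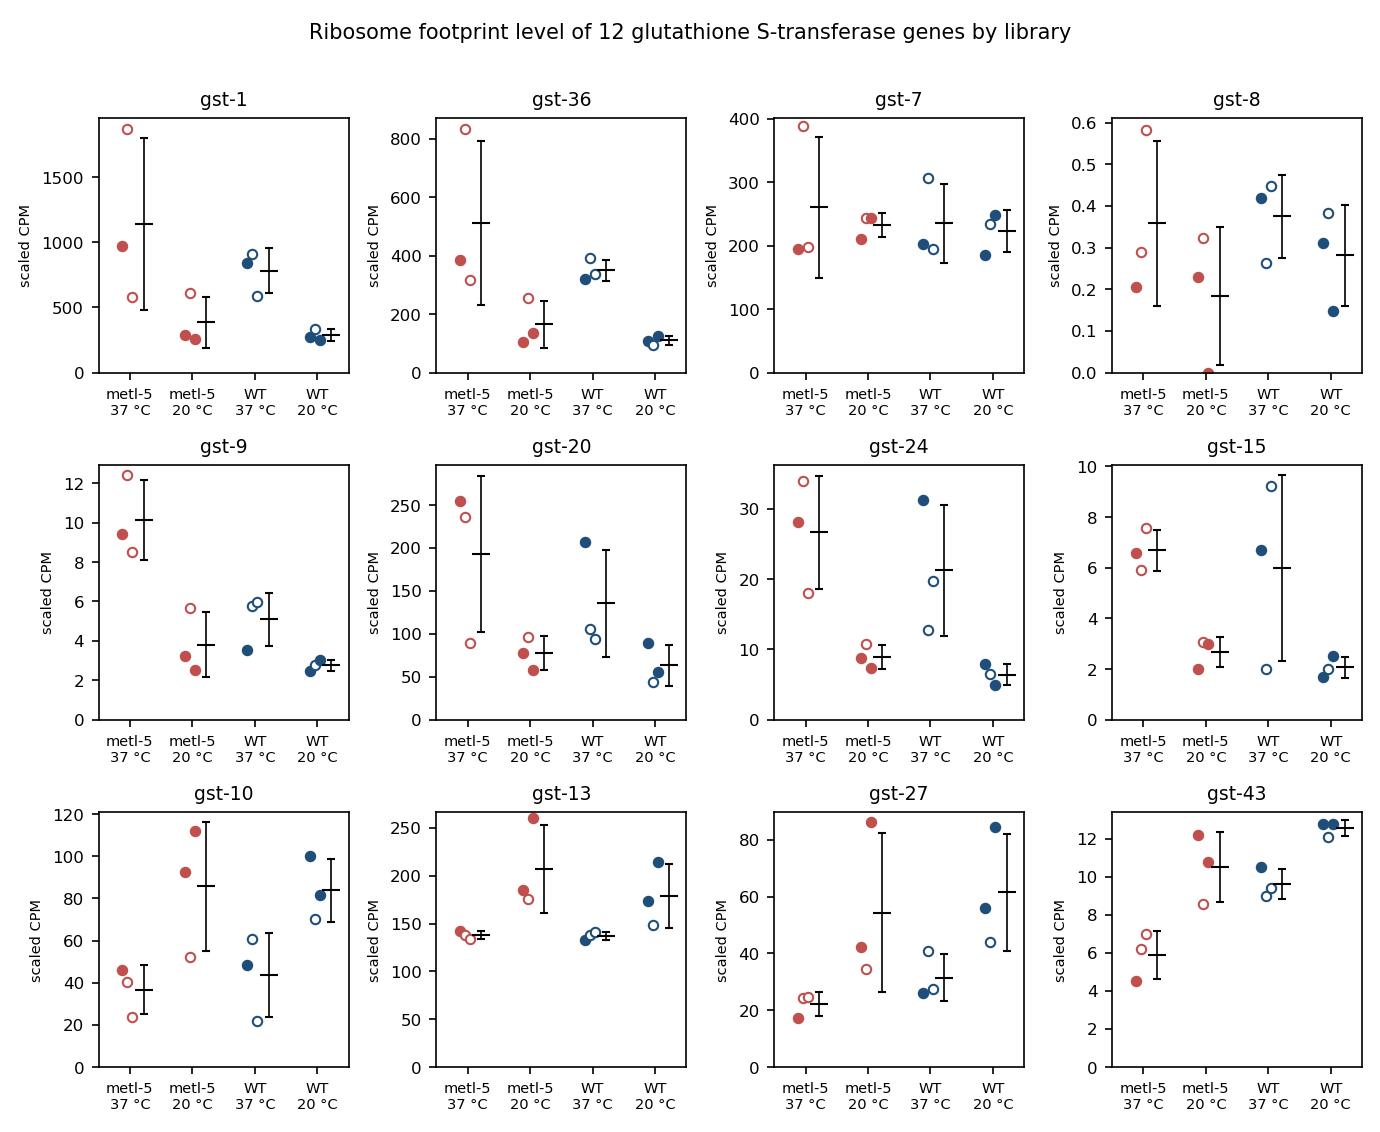
Footprint level (scaled CPM, linear axes from 0) of 12 members in each of 3 libraries per group, with the mean ± SD in black; open circles are the 6 doubted libraries. Heated points lie above unheated ones for gst-36, gst-24 and gst-9 in both strains. They lie below for gst-10, gst-13, gst-27 and gst-43 in both strains, and gst-7 shows no separation by temperature.

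The footprints of other members did not pass the test over all libraries. gst-4 was at 115, 87.2 and 90 scaled CPM in metl-5 at 37 °C against 94.5, 70.9 and 65.5 at 20 °C (0.34 ± 0.288), and at 110, 60.6 and 99.6 in WT at 37 °C against 106, 61.5 and 57.6 at 20 °C (0.26 ± 0.288). gst-42 changed by −0.40 ± 0.254 and −0.52 ± 0.253, with 47.6, 33.9 and 38.4 scaled CPM in metl-5 at 37 °C against 49.3, 38.3 and 70.6 at 20 °C. Where libraries were left out, further members stood out, among them gst-22 and gsto-1. gst-22 had −1.53 ± 0.554 in the mutant and −1.33 ± 0.527 in WT over all libraries (edgeR adjusted p = 0.0558 and 0.0854). It had −2.14 and −2.94 without the 6 doubted libraries, which leaves 1 heated library per strain. gsto-1 had −0.91 ± 0.550 and −0.85 ± 0.543 over all libraries (edgeR adjusted p = 0.218 and 0.260) and −2.35 and −1.46 without the doubted ones. In gsto-1 the heated libraries that lay among the unheated ones were both replicate 2, at 23 scaled CPM in the mutant and 25.2 in WT, against 4.72 and 7.76, and 9.83 and 5.96, in the other heated libraries.

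The footprints of marker genes also differed between temperatures. The summed intestinal markers were at 139 to 399 scaled CPM in metl-5 at 37 °C against 736 to 1830 at 20 °C, and at 155 to 658 in WT at 37 °C against 936 to 1730 at 20 °C. Of these 3 markers 2 fell in each strain, and of 4 adult markers 4 fell in the mutant and 0 in WT. Of 4 sperm markers 2 fell and of 2 cuticle markers 1 fell in each strain. The part of this shift in the members' footprints was not tested.

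Translational efficiency, the footprint level relative to the mRNA level, was compared between temperatures in 1 model over all 24 libraries. In heated metl-5 worms 5 of 39 tested members fell and 0 rose (12.8%, beside 20.9% of all 12079 genes called). In heated WT 3 fell and 0 rose (7.69%, beside 19.3%). Of all genes 11.2% rose and 9.72% fell in the mutant, and 11% rose and 8.30% fell in WT. The median log2 change of the members was −0.42 in the mutant and −0.34 in WT, beside −0.07 and −0.03 over all genes. gst-7, gst-9 and gst-36 fell in both strains, by 1.35, 1.82 and 1.55 in the mutant and by 1.54, 1.81 and 1.43 in WT on the log2 scale. Their SE were 0.348, 0.513 and 0.455 in the mutant (edgeR adjusted p = 0.00873, 0.0146 and 0.0188) and 0.348, 0.515 and 0.455 in WT (0.00442, 0.0167 and 0.0306). These 3 genes are among those whose mRNA rose, and the mRNA libraries that picked them also enter the efficiency. gst-27 and gst-6 fell in the mutant, by 1.71 ± 0.473 and 1.34 ± 0.471 (edgeR adjusted p = 0.0133 and 0.0455). WT had −1.23 ± 0.469 for gst-27 (0.0680) and −0.97 ± 0.468 for gst-6 (0.156), and the interaction was called for 0 members. The gst-6 call was lost in 13 of 33 alternative fits, 12 of them with 1 library left out. That of gst-36 was lost in 5 of 33 in the mutant and 8 in WT, 3 and 7 of them with 1 library left out. In the marker lists, 3 of 4 adult, 2 of 2 muscle and 1 of 3 intestinal markers fell in efficiency in each strain, and of 2 cuticle markers 1 fell in the mutant and 2 in WT; the part of these shifts in the members' values was not tested.

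These efficiency calls depend on how mRNA and footprint libraries are scaled to each other. With library totals in place of TMM the median of all genes moved to 0.54 in the mutant and 0.50 in WT, all 5 and all 3 calls were lost, and the only call was a higher efficiency of gstk-2 in each strain (1.19 and 1.41). Of all genes 21.2% then rose and 4.14% fell in the mutant, and 19.5% rose and 3.63% fell in WT. gst-7, gst-9 and gst-36 had −0.74, −1.20 and −0.98 in the mutant under that scaling (edgeR adjusted p = 0.142, 0.108 and 0.164) and −1, −1.26 and −0.93 in WT (0.0510, 0.0977 and 0.199). With each mRNA library paired to the footprint library of its number, 7 members fell in the mutant and 6 in WT, gst-1 among both (−1.16 and −1.17, adjusted p = 0.0476 and 0.0440), against −1.12 and −1.17 unpaired (0.0935 and 0.0799). When the 2 libraries that the authors' tables lack were dropped, 3 fell in the mutant and 6 in WT, and the mutant had −1.43 for gst-9 and −1.08 for gst-36 (edgeR adjusted p = 0.0508 and 0.0720). Without the 6 doubted libraries gst-9 had −1.53 in the mutant (0.161), and the other calls of gst-7, gst-9 and gst-36 in both strains held. gst-24 and gst-15 changed by −0.22 ± 0.522 and 0.49 ± 0.632 in the mutant and by −0.10 ± 0.527 and 0.24 ± 0.638 in WT.

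**Figure D5:**
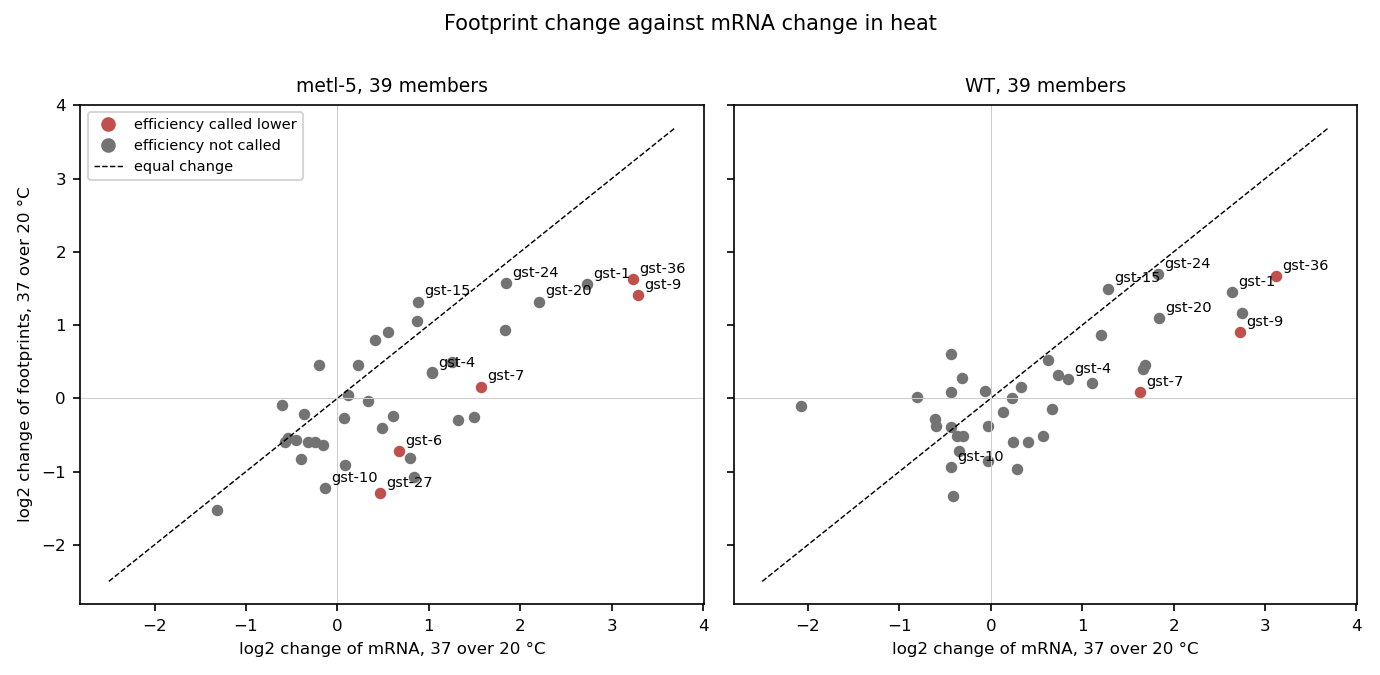
log2 change of footprints against log2 change of mRNA between 37 and 20 °C for the 39 members tested for translational efficiency, in the mutant and in WT. Dots are edgeR estimates, the dashed line marks equal change, and coloured dots had a lower efficiency at an adjusted p under 0.05: 5 in the mutant and 3 in WT. gst-36, gst-9 and gst-7 lie below the line in both panels, and gst-24 and gst-15 lie near it.

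Between genes, the ratio of footprints per coding kilobase to mRNA per exon kilobase ranged widely in unstressed WT. On the log2 scale it was highest for gst-36, at 2.01, and lowest for gstk-2, a kappa class member, at −2.24. gst-10, first by mRNA, had −1.28 and stood below gst-1, gst-7, gst-13, gst-36, gst-5 and gst-26 by footprints. The median of the members was 0.57, the same as that of all genes tested. At 37 °C in WT the members' median was 0.21, beside 0.49 over all genes. gst-7 had −0.78 in heated WT against 0.77 at 20 °C, and −0.40 in the heated mutant against 1.01 at 20 °C.

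The loss of metl-5 left no called difference in any member. At 20 °C, at 37 °C, on average over both and in the interaction of strain with heat, edgeR called 0 members in mRNA, footprints and translational efficiency, and so did DESeq2. The footprint and efficiency comparisons of the strains include the 4 footprint libraries with counts of the opposite strain's markers, so their counts of 0 compare the libraries as labelled; without the 6 doubted libraries they were also 0, with 1 library per strain at 37 °C. The background was also low, at 0.0300% of all genes for mRNA at each temperature, 0.0751% on average and 0% for the mRNA interaction and for every footprint and efficiency comparison. At an unadjusted p under 0.05 edgeR found in mRNA 1 member at 20 °C, 1 at 37 °C, 1 on average and 0 in the interaction. In footprints it found 0, 2, 2 and 0, and in efficiency 0, 0, 2 and 0. DESeq2 found 1, 1, 2 and 0 in mRNA, 0, 2, 3 and 0 in footprints and 0, 1, 2 and 0 in efficiency. Each of the authors' deposited tables of this comparison listed 36 to 41 members, of which 0 had an adjusted p under 0.05.

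Members with an unadjusted p under 0.05 between strains are named here after their values were seen. gst-3 mRNA was at 1.07, 1.85 and 1.35 scaled CPM in metl-5 at 20 °C against 0.582, 0.454 and 0.333 in WT at 20 °C. These groups did not overlap, with a log2 difference of 1.63 ± 0.656 (unadjusted p = 0.0245 and adjusted p = 1 by edgeR). gst-9 footprints were 0.98 ± 0.342 higher in the mutant at 37 °C (unadjusted p = 0.0134, adjusted p = 1), and gst-43 footprints there differed by −0.70 ± 0.254 (0.0171, adjusted p = 1), with neither gene's groups overlapping. Of the 3 mutant libraries there 2 are doubted, as are 2 of the 3 WT libraries. gst-22 mRNA differed by −0.90 ± 0.423 at 37 °C (0.0485, adjusted p = 1), with groups that overlapped. On average over both temperatures, the efficiency of gst-9 differed by 1.02 ± 0.362 and that of gst-36 by 0.78 ± 0.321 (unadjusted p = 0.00992 and 0.0231, adjusted p = 1 by edgeR). Values between strains for the risen members follow. On average over both temperatures, gst-1 mRNA differed by −0.18 ± 0.142, gst-36 by −0.21 ± 0.164, gst-7 by −0.21 ± 0.141 and gst-24 by −0.01 ± 0.257. Their heat changes differed between mutant and WT by 0.09 ± 0.283 for gst-1, 0.11 ± 0.328 for gst-36, −0.06 ± 0.282 for gst-7 and 0.02 ± 0.514 for gst-24, all with an adjusted p of 1. A p that misses the threshold does not show that the strains are alike.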

How the data were processed

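Whole adult worms gave 12 mRNA and 12 footprint libraries, 3 per group. The authors deposited whole-number read counts per gene, unstranded and by strand. Unstranded counts were used for mRNA and sense-strand counts for footprints. STAR and DESeq2 are named in the submitters' processing notes without a version; no source used here gives the genome build or annotation. The authors also deposited tables of metl-5 against WT, holding a base mean (a signal averaged over libraries), a log2 fold change and p-values, per the file headers; these were used for the strain comparison and to see which libraries entered.

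Counts were tested with edgeR 4.0.16 in R 4.3.3 (TMM scaling, filterByExpr, quasi-likelihood F-test). All libraries of an assay entered 1 fit, and Benjamini-Hochberg adjustment at 0.05 ran over all genes tested. Translational efficiency was the footprint-to-mRNA interaction over 24 libraries. Levels are TMM-scaled CPM, per exon kilobase for mRNA and per coding kilobase for footprints where stated. Errors are SD of levels and SE of log2 changes. Intervals and floors cover counting error only.

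Same-numbered libraries deviated together in the footprints (correlations of 0.14 to 0.66 in 4 contrasts), between mRNA and footprints (0.11 to 0.67) and in the mRNA strain contrasts (0.17 to 0.61), which is where the pairing comes from. Alternatives were DESeq2 1.42.0, its size factors, no filter, only the compared groups, unstranded footprint counts, the replicate block, leaving out libraries and, added after seeing the data, library totals. The code was tested on simulated data. Full values were given for members called in any comparison, the 5 highest in WT at 20 °C, and gst-1, gst-4, gst-10, gst-24, gst-42 and gsto-1; of each companion list, gcs-1, skn-1, wdr-23 and the 3 genes with the smallest p in heated WT could be named. Members and lists were chosen with earlier results of these data known.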

Additional observations from a re-analysis of the deposited data

How the results depend on the processing

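Apart from gst-8, which had to differ, the mRNA rises kept their direction and their side of the threshold in all 18 alternatives in each strain. The count of members called by mRNA was 13 in heated metl-5 and 12 in heated WT with library totals, against 8 and 7. For mRNA between temperatures the replicate numbers did not pair the libraries (correlations of 0.07, 0.29 and 0.01 in the mutant and 0.48, 0.36 and −0.05 in WT, with 3 and 4 of 6 libraries closest to their own number); the replicate block gave 11 members in WT and 11 in the mutant, gaining gst-4 and gst-13 in both strains, gst-30 in the mutant and gst-15 and gstk-2 in WT (gst-4 had 0.96 and 0.87 in the mutant and WT, edgeR adjusted p = 0.00263 and 0.00512). A fit of the metl-5 libraries alone also called gst-4. For footprints in heated WT, against 4, DESeq2 gave 9 members, only the compared groups 2, the replicate block 8, 10 came without the 2 libraries absent from the authors' set, and 8 without the 6 doubted libraries. For efficiency, library totals gave 1 member in each strain, leaving out the 2 absent libraries gave 3 in the mutant and 6 in WT, and the replicate block gave 6 in WT, against 5 and 3. The cause of these shifts was not tested. With 1 library left out, the counts ran from 7 to 9 for mRNA in each strain, from 0 to 11 for footprints in the mutant and 0 to 10 in WT, and from 3 to 7 for efficiency in the mutant and 2 to 5 in WT. Strain and interaction counts were 0 in all of these. The block changed no strain or interaction call. No result reversed. Footprint depth, 4410194 to 10947947 counts at 37 °C against 11503305 to 19012050 at 20 °C, limits members with few counts.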
